A study of Equus caballus with 45 samples.

Results

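Galectins are small lectins that bind beta-galactoside sugars on glycoproteins, and the genes described here are LGALS1, LGALS3 and LGALS8, which code for 3 of them, with LGALS3BP, which codes for a secreted partner of galectin-1 and galectin-3. They were chosen by name from a list of 5 symbols, of which 4 were matched among the 20881 protein coding genes of each count table. The fifth symbol, LGALS9, is not analysed here. Galectins are made in the cytosol, leave the cell by a route outside the classical secretory pathway, and cross-link glycans on receptors and matrix proteins. Within the cell some of them bind sugars exposed on damaged endosomes and lysosomes. In joint and stromal tissue galectin-1 is known as a product of fibroblast-like cells that dampens T cells, galectin-3 as a macrophage lectin, and LGALS3BP as a scavenger-receptor glycoprotein whose gene responds to interferon.

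RNA was sequenced from equine bone marrow mesenchymal stromal cells (MSC) and from joint cells exposed to MSC conditioned medium (CM), 45 libraries in all. The 12 MSC libraries came from 3 horses, labelled PC, 99 and 92, each with 1 library of untreated cells, 1 after the TLR3 agonist poly I:C, 1 after the STING agonist 2′3′-cGAMP and 1 under the label CpG. The 33 joint cell libraries were 11 each of synoviocytes, chondrocytes and macrophages. By the study's overview all 3 cell types came from 1 healthy horse. The methods repeat the number of 1 horse for synoviocytes and for macrophages. The 3 libraries per medium of each cell type carry the labels PC, ORC and AG1, used here as replicate names. The sources used here do not say whether these name a donor of the medium, a culture of the joint cells or both, and the study calls the libraries matched biological replicates.

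In each joint cell type 9 libraries received IL-1β and TNF-α together with CM of resting MSC (resting MSC-CM), TLR3-activated MSC (TLR-MSC-CM) or STING-activated MSC (STING-MSC-CM), 1 received the cytokines alone and 1 had no addition. The cells under all 3 media thus carried the cytokines as well. The agonists acted for 2 h, at 10 ng/mL according to the sample labels and 10 μg/mL according to the methods, and the joint cells were, by the methods, kept with cytokines and medium for 24 h, washed, and kept for another 24 h in fresh medium before RNA was taken. The study's overview instead places the cytokines in a separate step of 2 h before the medium. The labels give the cytokines at 10 ng/mL for macrophages and 20 ng/mL for synoviocytes, and the methods give 20 ng/mL for both. For chondrocytes the labels give no cytokine dose. That their media libraries had the cytokines rests on the methods, by which they were handled like the synoviocytes. The macrophages were grown from blood monocytes.

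Library totals ran from 23525704 to 54103873 counted reads. Levels are given as CPM, the read count of a gene scaled to the total of its library, and 3 reads, taken here as the floor, stood for 0.0554 to 0.128 CPM. The values have no length correction and are compared between libraries for 1 gene and not between genes. A few libraries stood apart in the mean of log2(CPM + 1) over 10 interferon-induced genes. The TLR3 agonist library of donor 92 had 2.86, the lowest of the 12 MSC libraries, where the other TLR3 and STING agonist libraries had 7.55 to 9.27. Chondrocytes with STING-MSC-CM, replicate AG1, had 5.09, against 2.80 to 3.33 in the other 10 chondrocyte libraries. Synoviocytes with TLR-MSC-CM, replicate ORC, had 4.81, against 3.23 to 3.68 in the other synoviocyte libraries.

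The cell labels were set beside marker genes. PTPRC, the pan-leukocyte phosphatase, was at 1085 to 1576 CPM in macrophages and at no more than 0.239 CPM in any library of the other cells. The macrophage libraries also held the T cell genes CD3E, at 60.4 to 134 CPM, and CD2, at 72.1 to 122 CPM. Fewer cells of a type and less RNA per cell cannot be told apart in such libraries, and the part of the T cell RNA in the macrophage values below was not tested. The synoviocyte marker PRG4 was not matched. The other 4 summed to 389 to 786 CPM in synoviocytes and 184 to 1009 CPM in MSC. In chondrocytes and macrophages their sum was 299 CPM or less. CLIC5 among them was at 0.159 CPM or less in synoviocytes and 7.50 to 14.4 CPM in macrophages. In the libraries labelled chondrocytes ACAN was at 6.12 to 101 CPM and COMP at 15.6 to 170 CPM, whereas the cartilage collagen COL2A1 was at 0.368 CPM or less and COL9A1 at 0.0376 CPM or less. In the other cells ACAN and COMP were at 3.47 CPM or less. SOX9 was at 7.53 to 67.6 CPM in chondrocytes and 10.8 to 64.0 CPM in MSC. MATN3 reached 0.675 CPM in chondrocytes and 3.12 CPM in synoviocytes. HAPLN1, SNORC and COL11A2 were at 0.463 CPM or less in chondrocytes.

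LGALS3BP differed more between untreated and agonist-treated MSC than any galectin did. Its level in untreated MSC was 34.6 CPM in donor PC, 53.9 CPM in donor 99 and 20.7 CPM in donor 92. After the STING agonist it was 1501 CPM in PC, 1527 CPM in 99 and 594 CPM in 92. All 3 donors were higher with the agonist and the ranges did not overlap, as for 5.97% of the genes tested, while 4.03% had all agonist libraries above all untreated ones. The ratio of the group means was 33.2, and the fitted log2 fold change was 5.04 ± 1.27 (SE, n = 3 donors per condition).

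After the TLR3 agonist LGALS3BP was at 1357 CPM in donor PC and 695 CPM in donor 99, but at 18.4 CPM in donor 92. Donors PC and 99 were thus above every untreated library, and donor 92 was below its own untreated library. The fitted log2 fold change was 4.31 ± 1.23 (SE). Without the TLR3 library of donor 92 it was 4.86 ± 0.59 (SE), with an adjusted p of 0.0203 in edgeR's quasi-likelihood test. Between the STING and the TLR3 agonist the log2 fold change was 0.73 ± 1.08 (SE), higher with the STING agonist in 3 of 3 donors and smaller than its error.

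With p-values from edgeR (quasi-likelihood F-test) adjusted over 14872 genes, 0 members were called in MSC after either agonist, and 0 genes of any kind (0%). At an unadjusted p under 0.05 the same test called 312 genes after the STING agonist (2.10% of those tested) and 171 after the TLR3 agonist (1.15%), and LGALS3BP was among them in both. The limits used in the study, there with DESeq2, were an unadjusted p not above 0.05 together with a log2 fold change whose size reached 2. By these limits 1.04% and 0.847% of genes were called in edgeR, LGALS3BP included in both. DESeq2 called 95 genes after the STING agonist at an adjusted p under 0.05 (0.639%) and 52 after the TLR3 agonist (0.350%). LGALS3BP was called there in both comparisons, with adjusted p-values of 1.68e-04 and 0.0060. With the other 10 alternatives in each comparison its adjusted p reached up to 1 and stayed above 0.05 in all but the edgeR fit without the TLR3 library of donor 92, so the call depends on the tool.

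LGALS8 codes for a galectin with 2 sugar-binding domains that marks damaged vesicles and recruits the autophagy receptor CALCOCO2. In untreated MSC it stood at 33.3 CPM in donor PC, 24.8 CPM in donor 99 and 31.0 CPM in donor 92. The STING agonist libraries had 63.5 CPM in PC, 50.5 CPM in 99 and 57.4 CPM in 92. Every STING agonist library was above every untreated library, which held for 4.03% of the genes tested. The log2 fold change was 0.93 ± 0.31 (SE), under the unadjusted limit of 0.05 but with an adjusted p of 1 in edgeR. The unadjusted limit was missed without the untreated library of donor 99 and without the STING library of donor PC.

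With the TLR3 agonist LGALS8 was at 69.7 CPM in donor PC, 36.9 CPM in donor 99 and 28.7 CPM in donor 92. The libraries that were high in LGALS3BP were again above all untreated libraries, and donor 92 lay within the untreated range. The log2 fold change was 0.66 ± 0.31 (SE) with an adjusted p of 1 in edgeR and above the unadjusted limit, and 0.89 ± 0.27 without the library of donor 92, where it was under the unadjusted limit. With the donor as a block it was also under it, with an adjusted p of 1. Between the STING and the TLR3 agonist it was 0.27 ± 0.31 (SE). Of all genes 0.242% had an unadjusted p under 0.05 between the agonists, and 0 members did.

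LGALS1, the prototype galectin made as a homodimer, showed no such step. Its level in untreated MSC was 1539 CPM in PC, 2060 CPM in 99 and 2818 CPM in 92, with 1427 to 3149 CPM after the TLR3 agonist and 1740 to 2886 CPM after the STING agonist. The ranges overlapped, and the log2 fold changes were 0.14 ± 0.38 (SE) and 0.04 ± 0.38 (SE). LGALS3, the chimera-type galectin with a collagen-like tail, behaved likewise in overlap. It stood at 212 CPM in PC, 359 CPM in 99 and 229 CPM in 92 without agonist, and donor 99 was the highest in every condition. The log2 fold changes of LGALS3, at 180 to 526 CPM and 213 to 476 CPM with the agonists, were 0.26 ± 0.53 (SE) after the TLR3 agonist and 0.17 ± 0.53 (SE) after the STING agonist, and neither LGALS1 nor LGALS3 reached an unadjusted p under 0.05 in MSC.

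The libraries labelled CpG lay at the untreated levels of LGALS3BP, with 31.0 CPM in PC, 56.1 CPM in 99 and 23.0 CPM in 92. The log2 fold change of LGALS3BP was 0.01 ± 1.00 (SE), and this fit excludes a change of neither sign. Its error comes from all 12 MSC libraries, the divided TLR3 agonist group included. It is not the spread of the CpG and untreated libraries alone. By donor the ratio of CpG to untreated was 0.896 in PC, 1.04 in 99 and 1.11 in 92. LGALS8 was at 24.8 to 29.3 CPM there, LGALS1 at 1659 to 2036 CPM and LGALS3 at 212 to 361 CPM. In this comparison edgeR called 0 of 15099 genes at an adjusted p under 0.05 (0%) and 46 at an unadjusted p under 0.05 (0.305%), and DESeq2 called 0 and 27. None of the 4 members was called by either tool at either limit.

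**Figure D1:**
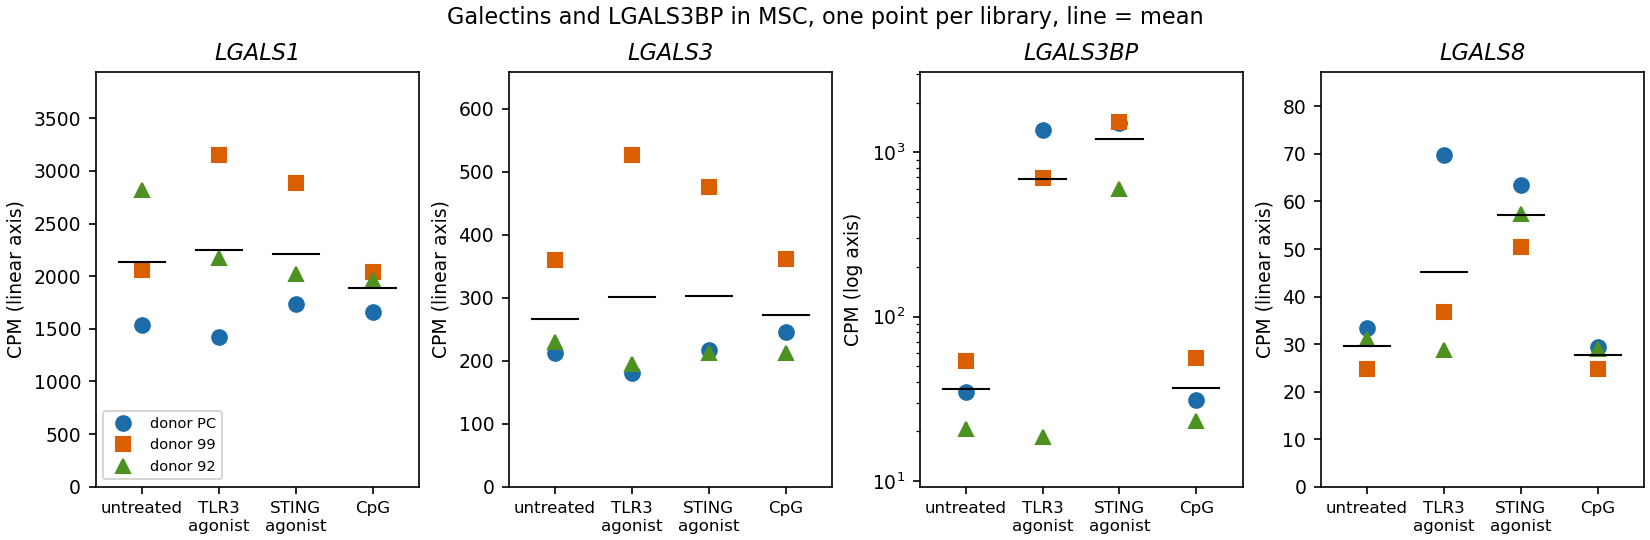
Levels of the 4 genes in MSC in CPM (log axis for LGALS3BP, linear axes from 0 for the others), 1 point per library by condition, with the donor shown by colour and shape and the mean of 3 as a line. LGALS3BP lies at 594 CPM or more in 5 of the 6 agonist libraries, and the TLR3 library of donor 92 lies at 18.4 CPM with the untreated ones.

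The joint cell types differed from each other in these genes, and in LGALS3 and LGALS3BP more than in the other 2. LGALS3 was at 3856 to 6491 CPM over the 11 macrophage libraries, at 52.1 to 126 CPM in chondrocytes and at 33.8 to 65.0 CPM in synoviocytes. The lowest macrophage library was far above every other joint cell library, while the chondrocyte and synoviocyte ranges overlapped over all conditions. With resting MSC-CM alone the 3 chondrocyte libraries, at 61.5, 92.0 and 98.8 CPM, were all above the 3 synoviocyte libraries, at 33.8, 35.5 and 40.1 CPM, as was so for 18.1% of the genes tested.

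In edgeR, with adjustment over 15599 genes and 3 libraries per cell type under resting MSC-CM, LGALS3 was higher in macrophages than in synoviocytes by 7.15 ± 0.25 (log2, SE, adjusted p = 2.08e-09) and than in chondrocytes by 5.96 ± 0.24 (adjusted p = 4.48e-09). Chondrocytes were above synoviocytes by 1.19 ± 0.19 (adjusted p = 0.0020). All 4 members passed in macrophages against synoviocytes, 3 in macrophages against chondrocytes and 3 in chondrocytes against synoviocytes. Of all genes tested 71.6%, 71.5% and 18.1% passed in the same comparisons, and 73.9%, 73.7% and 31.4% had an unadjusted p under 0.05, so that a call between macrophages and the other cells was common. By the study's overview each cell type came from 1 horse, so these p-values measure the spread between libraries and not between horses.

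LGALS3BP separated all 3 cell types. Under resting MSC-CM it was at 1359, 1773 and 1111 CPM in macrophages (replicates PC, ORC and AG1), at 12.7, 24.0 and 16.5 CPM in synoviocytes, and at 0.358, 0.318 and 0.187 CPM in chondrocytes. The chondrocyte values rest on 11, 8 and 7 reads. Macrophages were above synoviocytes by 6.30 ± 0.29 (log2, SE, edgeR adjusted p = 1.30e-08) and above chondrocytes by 12.27 ± 0.39 (adjusted p = 1.17e-09), and the difference of chondrocytes from synoviocytes was −5.97 ± 0.35 (adjusted p = 3.07e-06). Beside this, the mean over the 10 interferon-induced genes was 7.14 to 8.71 in macrophages and 2.80 to 5.09 in the other joint cells, and the part of this in the LGALS3BP levels was not tested.

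LGALS1 was at 1042 to 1601 CPM in macrophages, at 456 to 750 CPM in synoviocytes and at 324 to 879 CPM in chondrocytes. The macrophage range did not meet the others. With resting MSC-CM alone macrophages did not overlap with synoviocytes for 76.6% of all genes and with chondrocytes for 73.7%, and chondrocytes did not overlap with synoviocytes for 37.0%. Under resting MSC-CM macrophages were above synoviocytes by 1.11 ± 0.16 (log2, SE, edgeR adjusted p = 1.09e-04) and above chondrocytes by 1.68 ± 0.16 (adjusted p = 4.65e-06). The difference of chondrocytes from synoviocytes was −0.57 ± 0.16 (adjusted p = 0.032), and this call was lost in each of the 6 fits that leave out 1 library, with adjusted p-values of 0.0507 to 0.127.

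LGALS8 was the most even of the 4 genes across joint cells, with 61.4 to 80.0 CPM in synoviocytes, 47.2 to 71.3 CPM in chondrocytes and 40.8 to 68.7 CPM in macrophages. The difference of macrophages from synoviocytes was −0.46 ± 0.18 (log2, SE, edgeR adjusted p = 0.038) under resting MSC-CM. This call was lost in 4 of the 6 fits that leave out 1 library, where the adjusted p was 0.134 without the macrophage library of AG1, 0.053 without the synoviocyte library of AG1, 0.103 without that of ORC and 0.084 without that of PC. The differences of chondrocytes from synoviocytes, −0.30 ± 0.18, and of macrophages from chondrocytes, −0.16 ± 0.18, did not pass (adjusted p = 0.29 and 0.43 in edgeR).

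**Figure D2:**
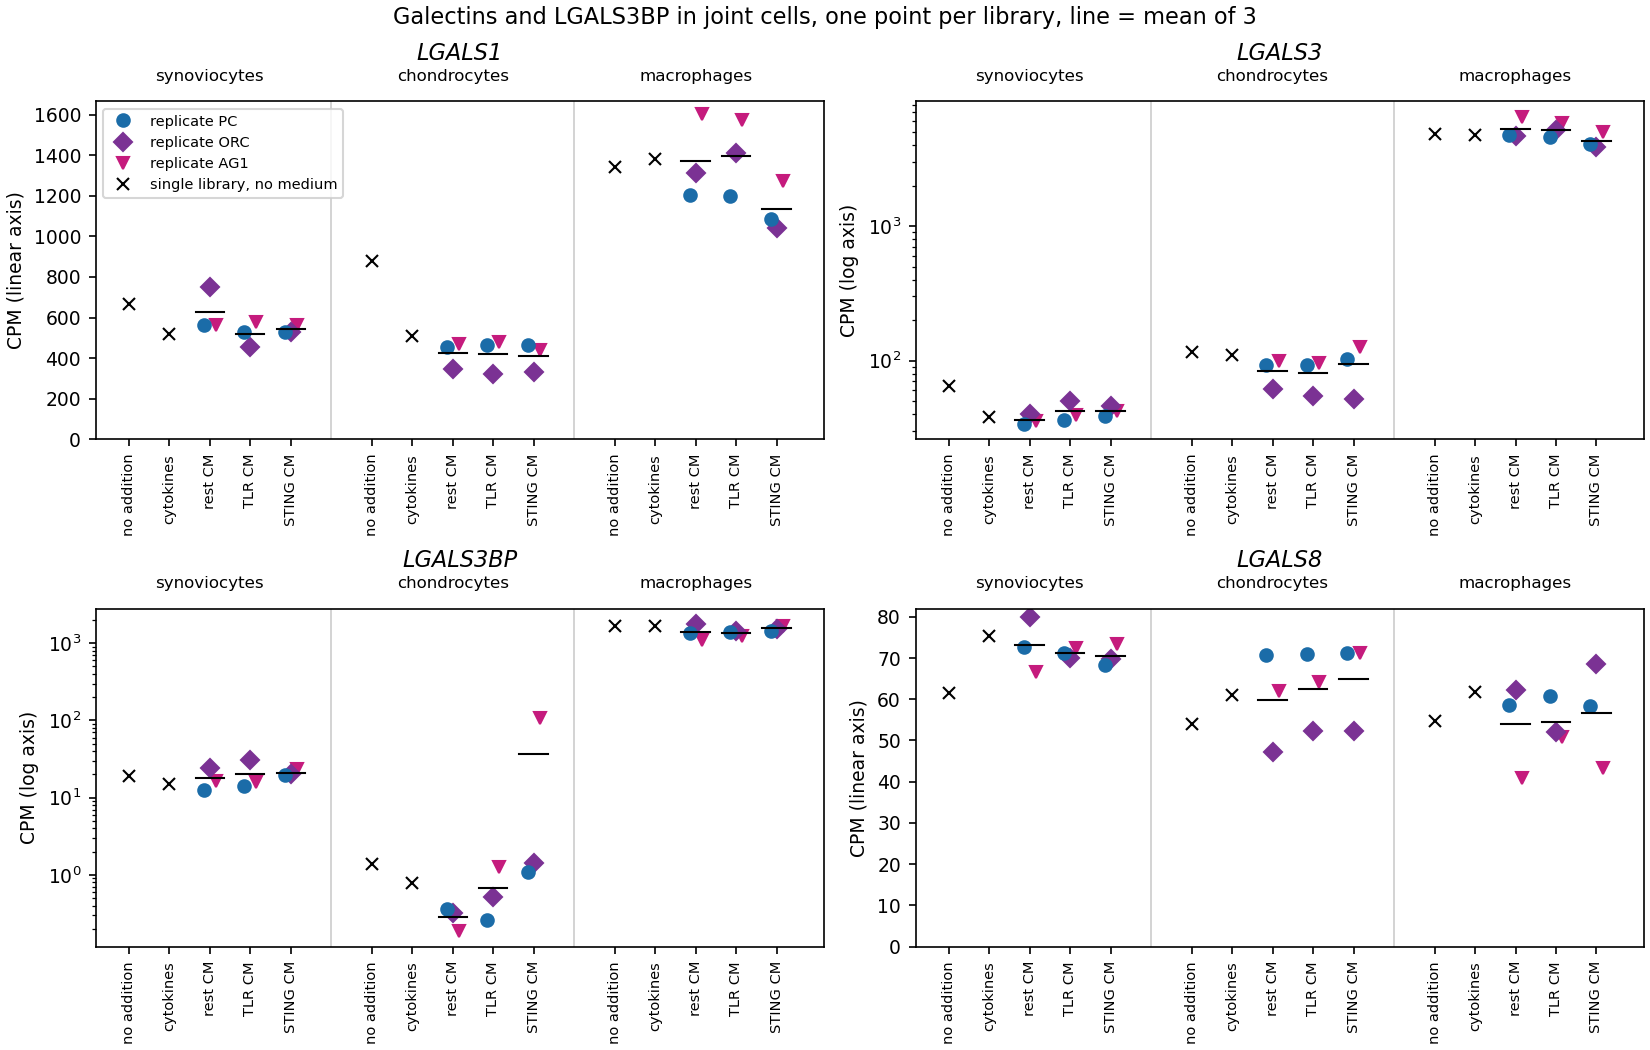
Levels of the 4 genes in joint cells in CPM (log axes for LGALS3 and LGALS3BP, linear axes from 0 for LGALS1 and LGALS8), 1 point per library by cell type and condition, with the replicate label shown by colour and shape, crosses for libraries without medium, and lines for means of 3. The macrophage libraries lie at 3856 CPM or more for LGALS3 and 1111 CPM or more for LGALS3BP, and 1 chondrocyte library with STING-MSC-CM reaches 109 CPM of LGALS3BP.

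The MSC were counted in a separate table, so their levels are set beside these without a test. LGALS1 in MSC, at 1427 to 3149 CPM, overlapped with macrophages and was above all synoviocyte and chondrocyte libraries, and LGALS3, at 180 to 526 CPM, lay between chondrocytes and macrophages. LGALS8 in untreated MSC, at 24.8 to 33.3 CPM, was below every joint cell library. Over all 12 MSC libraries it was at 24.8 to 69.7 CPM and overlapped with each joint cell type. How many of all genes separate MSC from joint cells was not counted.

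Conditioned media of activated MSC were compared with resting MSC-CM within each cell type. In the 9 medium comparisons edgeR called 0 genes of any kind at an adjusted p under 0.05 (0%), members included. At an unadjusted p under 0.05 it called 0.559% of 14304 genes in chondrocytes given TLR-MSC-CM, 0.909% given STING-MSC-CM and 0.811% between these media. In the same order the shares were 10.0%, 7.60% and 2.02% of 14584 genes in synoviocytes, and 2.13%, 4.76% and 6.60% of 15052 genes in macrophages. At the limits used in the study they were 0.308%, 0.391% and 0.273% in chondrocytes, 0.487%, 0.411% and 0.514% in synoviocytes, and 0.625%, 0.565% and 0.618% in macrophages, and the only member called by those limits was LGALS3BP in chondrocytes. DESeq2 called 2 genes at an adjusted p under 0.05 in synoviocytes with TLR-MSC-CM, 5 in macrophages with STING-MSC-CM and 33 in macrophages between the activated media, and 0 in the other 6 medium comparisons.

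In chondrocytes LGALS3BP was the member that differed between media. Its reads with STING-MSC-CM were 29 in replicate PC, 39 in ORC and 4577 in AG1, which gave 1.09, 1.45 and 109 CPM. All 3 libraries were above the 3 with resting MSC-CM, a pattern that 2.47% of the genes tested shared, and the library of AG1 was far above the rest. TLR-MSC-CM gave 0.259, 0.522 and 1.27 CPM for PC, ORC and AG1, overlapping with resting MSC-CM.

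The log2 fold change of LGALS3BP with STING-MSC-CM was 6.96 ± 1.89 (SE) against resting MSC-CM and 5.80 ± 1.71 against TLR-MSC-CM, both under the unadjusted limit with an adjusted p of 1 in edgeR. Without the library of AG1 these were 2.15 ± 0.67 and 0.92 ± 0.64, again with an adjusted p of 1. The difference from resting MSC-CM thus kept its sign and stayed under the unadjusted limit at a much smaller size. The difference from TLR-MSC-CM kept its sign and missed that limit. By the limits used in the study, applied to edgeR, LGALS3BP was called in both comparisons with all libraries. TLR-MSC-CM against resting MSC-CM gave 1.17 ± 2.17 (SE).

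Chondrocyte libraries of the same replicate label varied together, and with the label as a block LGALS3BP passed the adjusted limit against resting MSC-CM. There it was 1 of 2 genes called (0.014% of those tested), with a log2 fold change of 6.70 ± 0.92 (SE, edgeR adjusted p = 0.0205). Against TLR-MSC-CM the blocked adjusted p was 0.090. DESeq2 gave no p for LGALS3BP in these comparisons, since it set the gene aside as holding an outlying count. Over the 10 alternatives that gave one, the adjusted p against resting MSC-CM ran from 0.0205 to 1.

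Within the library of AG1, LGALS3BP was the gene farthest above the highest of the other 10 chondrocyte libraries, by 5.49 on the log2(CPM + 1) scale among 20881 genes. The next were BST2 (3.15), MX1 (3.13), IFI6 (3.12) and IFI27 (3.04), all known as interferon-induced genes. The 10 macrophage markers in the tables summed to 39.7 CPM in this library, of which CD68 gave 38.3 CPM. This was the highest sum among chondrocyte libraries, where the lowest was 10.5 CPM. The part of these markers in the LGALS3BP level was not tested. PTPRC was at no more than 0.159 CPM and CSF1R at no more than 0.152 CPM in any chondrocyte library. In this library LGALS3 was at 126 CPM and LGALS8 at 71.3 CPM, the highest chondrocyte levels of both, while LGALS1, at 441 CPM, lay within the range of the others. The genes next to LGALS3BP in the RefSeq annotation, CANT1 and TIMP2, were at 40.5 and 876 CPM there, CANT1 within the range of the other chondrocyte libraries and TIMP2 at the lowest level of the 11.

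The galectins themselves varied with the replicate label in chondrocytes. LGALS1 was at 453, 346 and 470 CPM with resting MSC-CM in replicates PC, ORC and AG1, at 463, 324 and 481 CPM with TLR-MSC-CM and at 463, 332 and 441 CPM with STING-MSC-CM. LGALS3 was at 92.0, 61.5 and 98.8 CPM, at 92.8, 54.2 and 95.8 CPM and at 104, 52.1 and 126 CPM in the same order, and LGALS8 at 70.6, 47.2 and 61.9 CPM, at 71.0, 52.4 and 64.3 CPM and at 71.1, 52.3 and 71.3 CPM. Replicate ORC had the lowest level of all 3 genes under each of the media, and no comparison of media was under the unadjusted limit for them. The study names galectin 3 among the genes upregulated in chondrocytes by STING-MSC-CM. In that comparison LGALS3 had a log2 fold change of 0.13 ± 0.31 (SE) in edgeR here. LGALS3BP was the member called when the limits of the study were applied to edgeR. The study used DESeq2, which as run here gave no p for LGALS3BP in this comparison.

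Synoviocytes showed smaller differences. LGALS3BP was at 14.0, 31.2 and 16.1 CPM with TLR-MSC-CM in replicates PC, ORC and AG1, and at 19.7, 20.2 and 23.5 CPM with STING-MSC-CM. The ORC library with TLR-MSC-CM, which also had the highest interferon mean, was the highest, and the ranges overlapped. The log2 fold changes against resting MSC-CM were 0.19 ± 0.25 (SE) and 0.26 ± 0.25 (SE), and between the activated media 0.07 ± 0.24 (SE). LGALS1 was the member under the unadjusted limit in synoviocytes, at −0.26 ± 0.11 (log2, SE) with TLR-MSC-CM (edgeR adjusted p = 0.49).

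That difference of LGALS1 rests on replicate ORC. With resting MSC-CM LGALS1 was at 565, 750 and 562 CPM for PC, ORC and AG1, and with TLR-MSC-CM at 527, 456 and 577 CPM. PC and ORC were lower with TLR-MSC-CM, and AG1 was higher. The unadjusted limit was missed without the resting library of ORC, at −0.13 ± 0.09 (log2, SE), and without its TLR library, at −0.17 ± 0.10. With STING-MSC-CM LGALS1 was at 530, 528 and 566 CPM, a log2 fold change of −0.21 ± 0.11 (SE). The fitted level of LGALS3 was above that with resting MSC-CM under both activated media, by 0.19 ± 0.10 and 0.21 ± 0.10 (log2, SE, edgeR adjusted p = 0.53 and 0.63). The ranges overlapped, and synoviocyte libraries of the same label did not vary together. LGALS3 levels were 33.8, 40.1 and 35.5 CPM for PC, ORC and AG1 with resting MSC-CM, 36.3, 49.9 and 39.5 CPM with TLR-MSC-CM and 38.5, 46.3 and 42.6 CPM with STING-MSC-CM. LGALS8 stayed at 66.6 to 80.0 CPM in these 9 libraries.

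In macrophages LGALS1 and LGALS3 were lower with STING-MSC-CM than with resting MSC-CM in all 3 replicates. LGALS1 was at 1205, 1312 and 1601 CPM with resting MSC-CM in PC, ORC and AG1, and at 1086, 1042 and 1272 CPM with STING-MSC-CM. LGALS3 went from 4740, 4638 and 6491 CPM to 4087, 3856 and 5016 CPM in the same replicates. Each replicate was lower, although the ranges of the media overlapped. How many of all genes went 1 way in all 3 replicates was not counted. The log2 fold changes were −0.29 ± 0.14 (SE) for LGALS1 and −0.31 ± 0.16 for LGALS3, both with an adjusted p of 0.91 in edgeR.

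Macrophage libraries of the same replicate label also varied together. With the label as a block both genes were under the unadjusted limit, as were 13.5% of all genes in that fit. The blocked adjusted p-values in edgeR were 0.17 for LGALS1 and 0.19 for LGALS3, so neither passed, and over all alternatives they reached up to 1. Without the resting library of AG1 the unblocked log2 fold changes were −0.17 ± 0.14 and −0.14 ± 0.15 (SE). With TLR-MSC-CM the changes were −0.03 ± 0.14 for LGALS1 and −0.08 ± 0.16 for LGALS3. There LGALS1 was at 1198, 1411 and 1572 CPM for PC, ORC and AG1, and LGALS3 at 4576, 5211 and 5859 CPM, so that replicate AG1 had the highest level of both genes under each of the media. Between STING-MSC-CM and TLR-MSC-CM both genes were lower with STING-MSC-CM in 3 of 3 replicates, by −0.26 ± 0.14 for LGALS1 and −0.23 ± 0.16 for LGALS3 (log2, SE, edgeR adjusted p = 0.74 and 0.78). Here too the share of all genes with 1 direction in 3 of 3 replicates was not counted. With the label as a block LGALS1 and LGALS3 were under the unadjusted limit, with 16.3% of all genes, and the adjusted p was 0.15 and 0.22, in a range of 0.15 to 1 and 0.22 to 1 over the alternatives.

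LGALS3BP in macrophages stayed within 1111 to 1773 CPM over all conditions. With STING-MSC-CM it was at 1458, 1540 and 1664 CPM for PC, ORC and AG1, and with TLR-MSC-CM at 1389, 1448 and 1246 CPM. The activated media did not overlap with each other, as for 12.8% of the genes tested, and both overlapped with resting MSC-CM. Against resting MSC-CM the log2 fold change was 0.12 ± 0.17 (SE) for STING-MSC-CM and −0.11 ± 0.17 for TLR-MSC-CM, and it was 0.23 ± 0.17 between them. LGALS8 in macrophages was at 58.6, 62.3 and 40.8 CPM with resting MSC-CM in PC, ORC and AG1, at 60.8, 52.1 and 50.8 CPM with TLR-MSC-CM and at 58.3, 68.7 and 43.3 CPM with STING-MSC-CM. Replicate AG1 had the lowest level under each, and LGALS8 had no unadjusted p under 0.05 for any medium in any of the joint cells.

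The change with STING-MSC-CM was then compared between cell types in 1 model over all 27 replicated joint cell libraries. LGALS3BP changed by 6.71 ± 1.54 (log2, SE) more in chondrocytes than in synoviocytes. Its change in macrophages minus that in chondrocytes was −6.86 ± 1.53. Neither passed adjustment over 16584 genes in edgeR (adjusted p = 1 and 0.72), where 0 genes passed (0%). Both were under the unadjusted limit, as were 1.74% and 3.59% of genes. DESeq2 called 1 gene (0.00603%) and 4 genes (0.0241%) in these contrasts, LGALS3BP in both with adjusted p-values of 0.016 and 0.0093. Under the other 4 alternatives the adjusted p was between 0.63 and 1. Macrophages and synoviocytes differed in this change by −0.14 ± 1.18 (SE), where 4.38% of genes were under the unadjusted limit and DESeq2 called 2 genes, neither of them a member. LGALS1, LGALS3 and LGALS8 were above the unadjusted limit in all of these contrasts. For TLR-MSC-CM no member was under the unadjusted limit, and the shares of genes that were came to 1.72% for chondrocytes against synoviocytes, 2.64% for macrophages against chondrocytes and 3.99% for macrophages against synoviocytes. All these contrasts share 1 estimate of spread per gene over the 27 libraries, the chondrocyte library of AG1 with STING-MSC-CM included. The error for LGALS3BP between macrophages and synoviocytes thus also takes in that library. In the fits of 1 cell type the SE of its change with STING-MSC-CM was 0.25 in synoviocytes and 0.17 in macrophages. No contrast was fitted without the library of AG1.

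**Figure D3:**
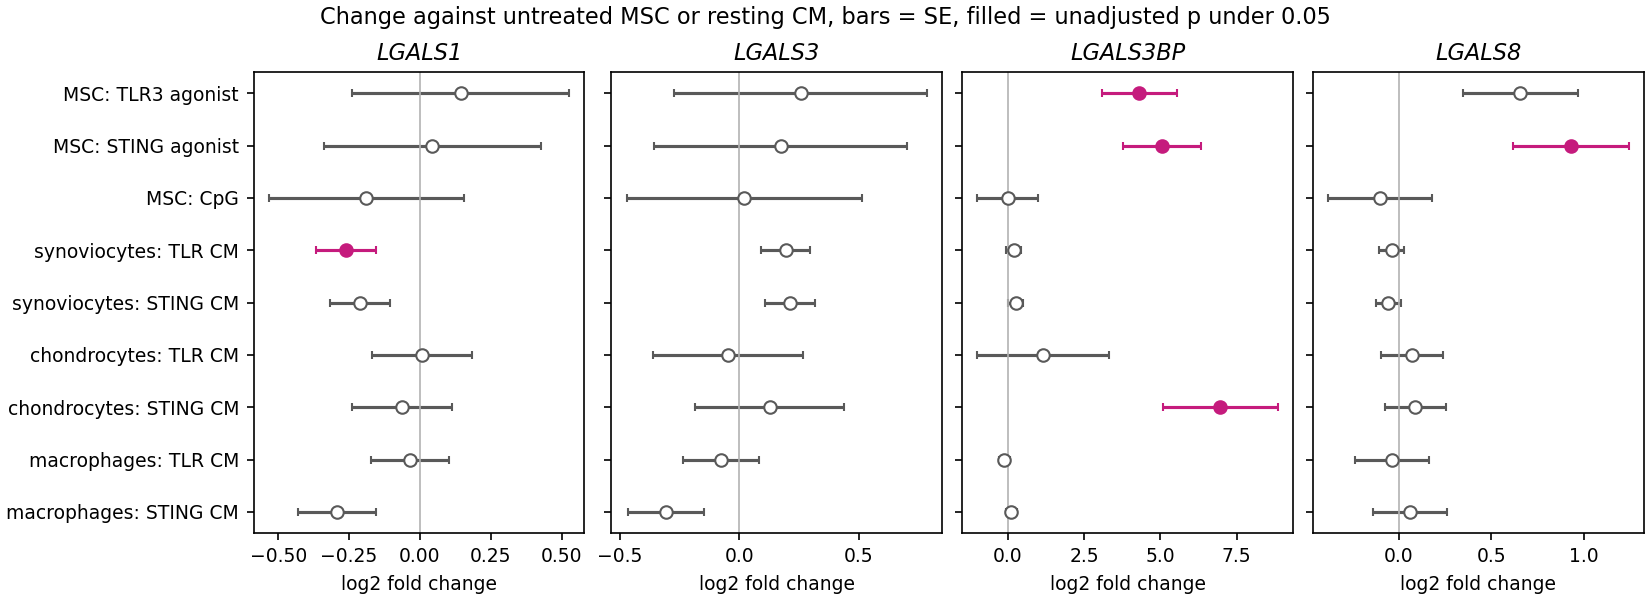
Log2 fold changes from edgeR against untreated MSC or resting MSC-CM, 1 row per comparison and 1 panel per gene with its own axis, with bars for the SE and filled points for an unadjusted p under 0.05. Filled points are LGALS3BP in MSC with either agonist and in chondrocytes with STING-MSC-CM, LGALS8 in MSC with the STING agonist and LGALS1 in synoviocytes with TLR-MSC-CM.

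The cytokines alone were set against no addition in 1 library each, so that the ratios have no replicate check and their 95% exact binomial intervals cover counting error only. By the sample titles the synoviocyte library with cytokines carries the label PC and that without carries ORC. The synoviocyte ratios thus also set PC against ORC, and these differences cannot be told apart. In chondrocytes and macrophages both libraries carry ORC. LGALS1 was at 509 CPM with cytokines and 879 CPM without in chondrocytes, a ratio of 0.579 (0.568 to 0.590). In synoviocytes it was at 518 and 668 CPM (ratio 0.776), and in macrophages at 1382 and 1342 CPM (ratio 1.03). The chondrocyte library without addition had the highest LGALS1 level of all 11 chondrocyte libraries. LGALS3 in synoviocytes was at 38.2 CPM with cytokines and 65.0 CPM without, a ratio of 0.588 (0.545 to 0.634), and its ratios were 0.944 (0.900 to 0.989) in chondrocytes and 0.981 (0.973 to 0.989) in macrophages.

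LGALS8 was higher in the cytokine library of all 3 cell types, with ratios of 1.23 (1.15 to 1.31) in synoviocytes, 1.13 (1.05 to 1.20) in chondrocytes and 1.13 (1.05 to 1.21) in macrophages. LGALS3BP had ratios of 0.770 in synoviocytes, 0.564 (0.337 to 0.938) in chondrocytes and 0.994 in macrophages. At a limit of 1 in log2(CPM + 1), a 2-fold difference, 0 members were past the fold in any cell type. Among all genes with a read, 2.48% were past it in synoviocytes, 6.52% in chondrocytes and 0.0778% in macrophages, which makes the macrophage libraries with and without cytokines nearly alike at this limit.

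The level of LGALS3BP lay beside that of the interferon-induced genes in every cell type. In MSC the 5 agonist libraries with an interferon mean of 7.55 or more had 594 CPM or more of LGALS3BP, and the other 7, with means of 3.75 or less, had 56.1 CPM or less. The TLR3 library of donor 92 had the lowest value of both among MSC. In chondrocytes the library with the highest interferon mean was the one with the highest LGALS3BP, and the same held in synoviocytes and in macrophages, where resting MSC-CM in replicate ORC had 8.71 and 1773 CPM. The interferon means of chondrocytes lay mostly below those of synoviocytes, so the levels of these cell types are not compared at an equal mean. Chondrocyte libraries with means of 2.80 to 3.33 had 1.45 CPM or less, and the synoviocyte libraries with means of 3.23 to 3.68 had 12.7 to 24.0 CPM. The chondrocyte library without addition, with a mean of 3.33, had 1.39 CPM. Synoviocytes with cytokines alone, with a mean of 3.32, had 14.9 CPM. Each of these is 1 library, and a difference between cell types at an equal mean was not tested.

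**Figure D4:**
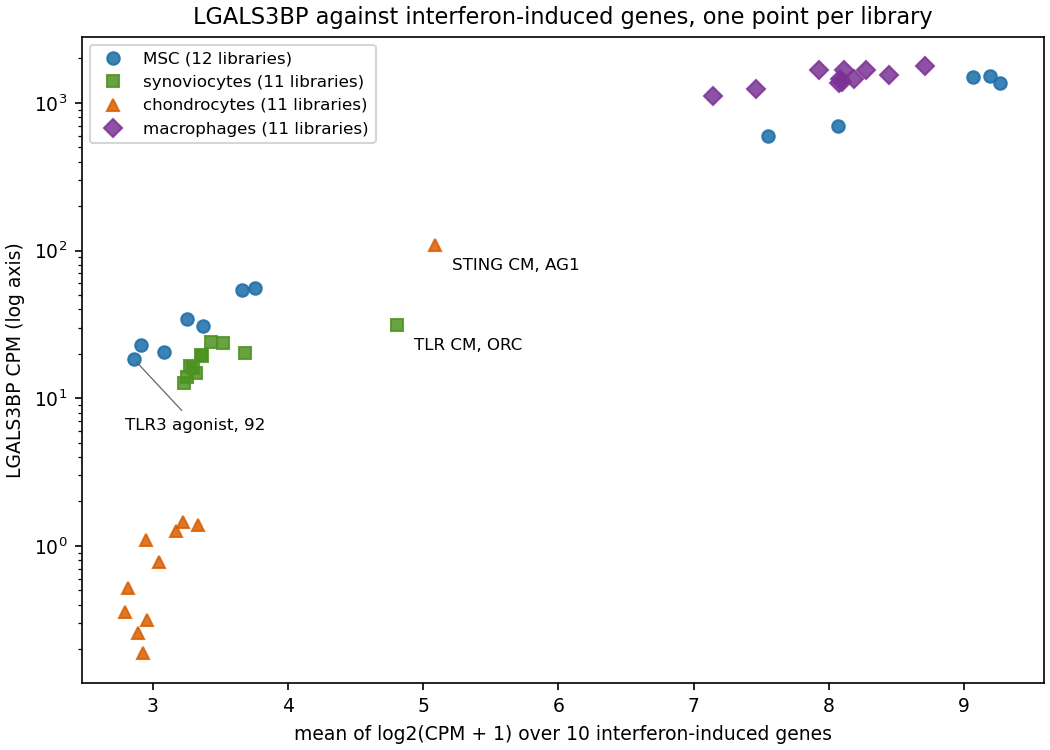
LGALS3BP in CPM (log axis) against the mean of log2(CPM + 1) over 10 interferon-induced genes, 1 point per library for 45 libraries, with cell types by colour and shape. The 3 labelled libraries are those that stood apart, and chondrocytes with STING-MSC-CM, replicate AG1, lie at 5.09 and 109 CPM, away from the other 10 chondrocyte libraries.

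Genes with the most similar profile were found by the Pearson correlation of log2(CPM + 1) with each member, as a description, since libraries share replicate labels and treatments. Over the 12 MSC libraries the 3 genes nearest to LGALS3BP among 11822 were ENSECAG00000012132 (r = 0.998), DHX58, an RNA-sensing helicase (r = 0.995), and IRF7, an interferon regulatory factor that is also among the reference genes (r = 0.995). Nearest to LGALS8 were RSAD2 (r = 0.977), ISG20 (r = 0.977) and P2RX7 (r = 0.976), of which RSAD2, another of the reference genes, and ISG20 code for antiviral interferon-induced proteins. The 12 libraries fall into 5 with and 7 without high interferon-induced genes, and these values follow that division. LGALS1 was nearest to TRIR (r = 0.985), NDUFS3 (r = 0.984) and GUK1 (r = 0.984), and LGALS3 to SOD1 (r = 0.975), OVCA2 and BOLA1 (r = 0.969 for both), with none of the reference genes.

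Over the 33 joint cell libraries the profiles mainly followed the cell type. LGALS3 was nearest to SULT4A1 (r = 0.998), ESYT3 (r = 0.997) and SEC14L2 (r = 0.997) among 12461 genes. LGALS3BP was nearest to PARP10A and DDX60L (r = 0.988 and 0.987) and to ENSECAG00000019932 (r = 0.986). LGALS1 was nearest to POLR1F, SPINT2 and AKNA (r = 0.963 for each, to 3 digits), and LGALS8 to NHLRC3 (r = 0.856), VCAM1 (r = 0.829) and NXPE3 (r = 0.813).

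The rest of the galectin pathway was described by lists of named genes. Of 11 other galectin family genes 5 were in the tables, and most were near the floor. LGALS2 was at 0.137 CPM or less in every library, GRIFIN at 0.193 CPM or less and LGALS4 at 0.403 CPM or less. LGALSL, a galectin-like gene, was at 5.40 to 10.3 CPM in synoviocytes, up to 7.77 CPM in chondrocytes, 1.87 to 4.41 CPM in MSC and 0.0706 to 0.396 CPM in macrophages. LGALS12 was highest in macrophages, at 0.386 to 1.90 CPM. In edgeR under resting MSC-CM, the difference of macrophages from synoviocytes was −5.30 for LGALSL and 6.48 for LGALS12 (log2, adjusted p = 6.16e-08 and 7.54e-05).

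Glycoprotein ligands and counter-receptors were compared between cell types. Of 30 tested, 14 were higher and 13 lower in macrophages than in synoviocytes at an adjusted p under 0.05 in edgeR, where 36.6% of all genes were higher and 35.1% lower, and the median log2 fold change was 0.42 against 0.04 over all genes. PTPRC, whose product galectin-1 binds on leukocytes, was among those higher in macrophages, at 15.52, where synoviocytes held it near the floor. The laminin subunit gene LAMC1 was lower, at −6.86, as were the integrin gene ITGA3, at −7.26, and PDGFRB, a receptor of fibroblast-like cells, at −9.25. CD44, a hyaluronan receptor bound by galectins, was at 1117 to 1493 CPM in macrophages and 486 to 554 CPM in synoviocytes. TREM2, a lipid receptor of macrophages to which galectin-3 binds, was at 69.6 to 125 CPM in macrophages and at 0.208 CPM or less in all other cells. HAVCR2, which codes for the galectin-9 receptor TIM-3, was at 2.93 to 10.9 CPM in macrophages, and no library of the other cells had more than 2 reads of it.

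LAG3, an inhibitory receptor to which galectin-3 binds, was at 41.0 to 90.02 CPM in macrophages. In MSC it was the ligand or counter-receptor with an unadjusted p under 0.05 after the STING agonist, 1 of 27 tested, and 0 passed adjustment. Untreated MSC had 3, 8 and 0 reads of LAG3 in PC, 99 and 92. After the STING agonist there were 104, 572 and 50 reads, or 3.06, 14.7 and 1.75 CPM, and after the TLR3 agonist 47, 55 and 4 reads. Every STING agonist library was above every other MSC library in CPM. Of all genes 4.03% had all STING agonist libraries above all untreated ones, and 1.63% above all TLR3 agonist ones. The share above every other MSC library was not counted. The fitted difference against untreated was 5.94 (log2, SE 1.495), with an adjusted p of 1 in edgeR, and rests on a group with 0 to 8 reads. The 27 genes had a median log2 fold change of 0.05 after the STING agonist and 0.12 after the TLR3 agonist, against 0.01 and 0.02 over all genes.

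Glycan branching and capping enzymes set which sugars galectins can bind. Of 15 tested, 7 were higher and 4 lower in macrophages than in synoviocytes at an adjusted p under 0.05 in edgeR, near the 71.6% called among all genes. MGAT5, which starts the N-glycan branch that galectins favour, was higher by 3.02, and for FUT8, which adds the core fucose, the difference was −1.73 (log2, adjusted p = 1.76e-08 and 5.54e-07). ST6GAL1, whose sialic acid caps galectin ligands, was at 15.8 to 32.1 CPM in macrophages and 4.26 to 9.61 CPM in synoviocytes, and in chondrocytes it was 0.83 above synoviocytes (log2, adjusted p = 0.0032). In MSC 0 of 15 had an unadjusted p under 0.05 with either agonist, with medians of −0.14 for TLR3 and −0.06 for STING.

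Among 12 partners in vesicle damage, 3 were higher and 4 lower in macrophages than in synoviocytes at an adjusted p under 0.05, beside 71.6% called among all genes. CALCOCO2, the receptor that LGALS8 recruits, was even, at 107.6 to 168 CPM over the 45 libraries. TRIM16, which works with galectin-3 at damaged membranes, was at 14.5 to 34.7 CPM in MSC, 5.68 to 17.7 CPM in chondrocytes, 3.33 to 4.62 CPM in synoviocytes and 1.02 to 3.79 CPM in macrophages. Chondrocytes were above synoviocytes in TRIM16 by 1.43 (log2, edgeR adjusted p = 0.0059). No gene of the 12 had an unadjusted p under 0.05 in MSC with an agonist. By contrast all 10 interferon reference genes had one with either agonist, with median log2 fold changes of 6.14 for STING and 5.08 for TLR3, while 0 of them passed adjustment in edgeR.

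**Figure D5:**
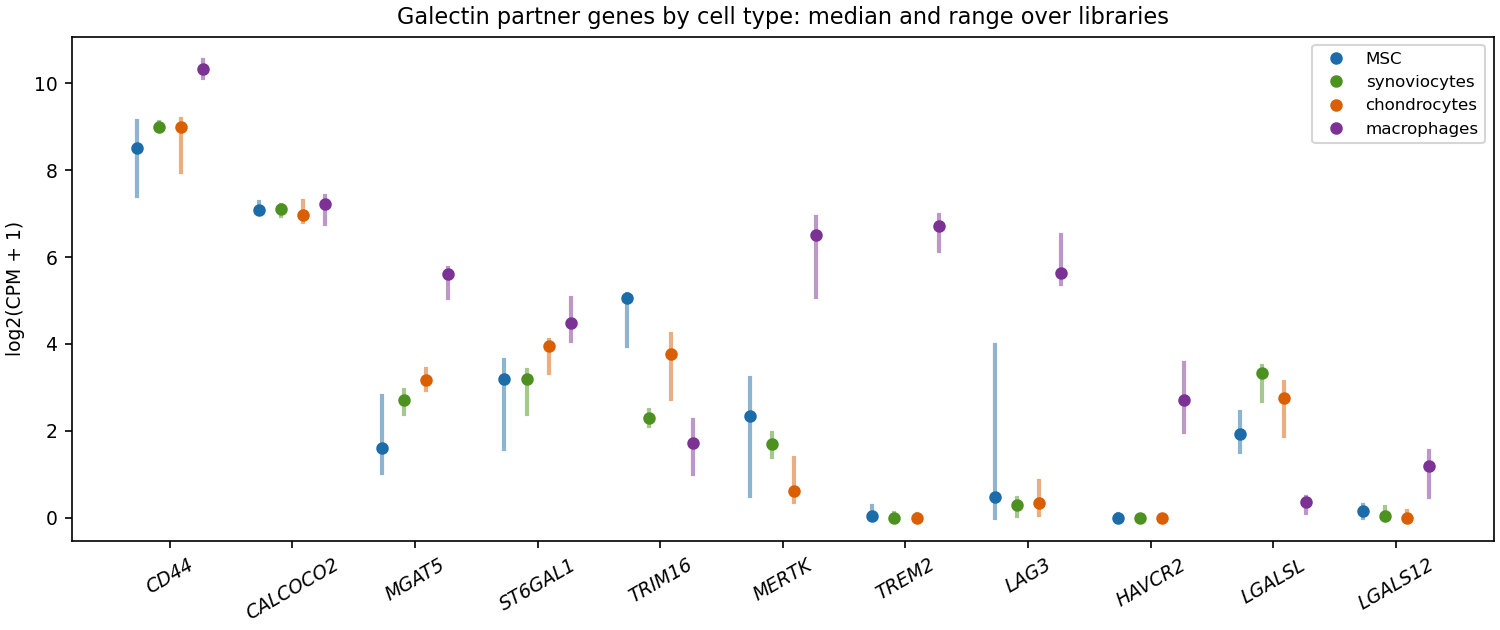
Levels of galectin partner genes by cell type as log2(CPM + 1), with points for the median and bars for the range over 12 MSC libraries and 11 libraries of each joint cell type. MERTK, TREM2 and HAVCR2 are highest in macrophages, TRIM16 in MSC, and CALCOCO2 is similar in all 4 cell types.

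CD68, a lysosomal glycoprotein gene used as a macrophage marker, moved with LGALS3BP in MSC. It was at 8.28 to 324 CPM over the 12 libraries, with log2 fold changes of 3.85 ± 0.97 (SE) after the STING agonist and 2.80 ± 0.93 after the TLR3 agonist and an adjusted p of 1 for both in edgeR. The 10 macrophage markers summed to 9.19 to 325 CPM in MSC, so that CD68 made up nearly all of the highest sum. PTPRC, at 0.239 CPM or less, and CSF1R, at 0.304 CPM or less, were low in all MSC libraries. The part of CD68-expressing cells in the LGALS3BP level was not tested.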

How the data were processed

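Reads of 45 polyadenylated RNA libraries were, per the authors, trimmed with cutadapt 1.12, aligned to EquCab3.0 with STAR and counted per gene with HTSeq 0.11.0. The deposited values are counts of protein coding genes, as whole numbers and without normalization, in 1 table for MSC and 1 for joint cells. The largest counts are written with 3 significant digits. No column was left unused.

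Groups followed the sample labels, with the label for the line (PC, 99 and 92 in MSC, PC, ORC and AG1 in joint cells) as replicate (n = 3 per replicated condition). CPM used the library total. Genes with at least 10 counts over a fit were tested with edgeR 4.0.16 (TMM normalization, quasi-likelihood test, no replicate term) in R 4.3.3, over the 9 libraries of a cell type, over 12 MSC libraries for CpG, over the 9 libraries with resting MSC-CM between cell types and over 27 for contrasts of changes. The Benjamini-Hochberg adjustment took in all genes of a comparison, and the limit was 0.05. The code was tested on simulated data. Alternatives were DESeq2 1.42.0, DESeq2 size factors, filterByExpr, no filter beyond a count above 0, the replicate label as a block and leaving out each library. The interferon mean was also taken with a pseudocount of 0.1 CPM in place of 1, and levels with TMM.

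The median correlation of deviations from the condition means between libraries of the same replicate label was 0.822 for MSC (lowest 0.696), 0.576 for chondrocytes (lowest 0.517), 0.283 for macrophages (lowest 0.238) and 0.0207 for synoviocytes (lowest −0.284). The labels were thus taken to pair the libraries of all but synoviocytes, from the MSC donor in MSC and from these correlations in the others. The study calls the joint cell libraries matched biological replicates, but what their labels name is not given in the sources used here, and p-values measure the spread between these libraries.

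The members and gene lists were chosen with earlier results of these data known. Named were the members, the 3 genes most like each member (Pearson correlation, mean of at least 1 CPM), and, from the lists, genes among the 4 of smallest p of those passing adjustment, besides HAVCR2, LAG3, CD44, MERTK, TREM2, MGAT5, ST6GAL1, CALCOCO2 and TRIM16 for their levels. The named genes of the chondrocyte AG1 library and CD68 in MSC were chosen after their values were seen. No sequences were used here.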

Additional observations from a re-analysis of the deposited data

How the results depend on the processing

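The number of members called was within 1.5 times the reported one in 176 of 181 alternative fits. Outside the comparisons between cell types under resting MSC-CM the reported number was 0. An alternative with 0 was there counted as within, so the figure is no measure of stability. Between chondrocytes and synoviocytes 2 members were called in each of the 6 fits that leave out 1 library, without LGALS1. This also counted as within 1.5 times. DESeq2 called 1 member, LGALS3BP, in MSC with either agonist, and 2 over the contrasts of changes between cell types, where edgeR called 0. With the replicate block 1 member was called in chondrocytes between STING-MSC-CM and resting MSC-CM. The block moved no other count by over 1.5 times. Leaving out 1 library at a time gave 0 to 1 members after the TLR3 agonist in MSC. Why the tools differ was not tested.

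Of 477 alternative values of the log2 fold changes printed, 19 changed sign, all on leaving out 1 library. In MSC the values then ran from −0.27 to 0.40 for LGALS1 and −0.52 to 0.55 for LGALS3 after the TLR3 agonist, from −0.25 to 0.27 and −0.37 to 0.47 after the STING agonist, and from −0.43 to 0.42 for LGALS3BP with CpG. LGALS3BP ran from −0.23 to 0.44 in synoviocytes with TLR-MSC-CM and −0.15 to 0.49 between the activated media, and in macrophages from −0.27 to 0.087 with TLR-MSC-CM and −0.035 to 0.32 with STING-MSC-CM. In macrophages with TLR-MSC-CM LGALS1 ran from −0.12 to 0.070 and LGALS3 from −0.17 to 0.077, and LGALS8 between macrophages and chondrocytes from −0.30 to 0.025. All 16 resting levels moved by less than 1 SD with TMM. With the smaller pseudocount 6 of 13 group means of the interferon genes moved by more than 1 SD. With 3 libraries per group and 1 for the cytokine conditions, small differences of these genes cannot be resolved, and LGALS3BP in resting chondrocytes rests on 7 to 11 reads.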
